A study of Homo sapiens with 6 samples.

Results

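The semaphorin system was followed in Meg-01 cells through 10 of the 58735 genes in the count table: the ligands SEMA6B, SEMA4A, SEMA4B, SEMA4D and SEMA7A, the plexin receptors PLXNA1, PLXNA3, PLXNB1 and PLXNB2, and the neuropilin co-receptor NRP1. They were picked by symbol because SEMA6B was higher after treatment in these same libraries, so the change of SEMA6B is a description here and no p-value is printed for any of the 10 genes. Calls of these genes by a p gate are given as descriptions too. RNA was sequenced from 3 libraries of untreated control cells and 3 libraries of cells given 500 µM sodium propionate (C3), a short-chain fatty acid produced by gut bacteria. Meg-01 is an established human megakaryoblastic cell line, a model of the precursors of platelet-forming megakaryocytes. The labels give 48 h of C3, whereas the methods mention incubations of different length, and in the study the libraries within a group are described as technical replicates. The spread and the p-values below then measure only the differences between these libraries, which need not include those between independent cultures.

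Semaphorins are secreted or membrane-bound ligands that share a sema domain and were first known as guidance cues for growing axons. They bind plexins, large receptors whose cytoplasmic part acts on small GTPases of the Rap and R-Ras families and through them on actin and integrin adhesion. The secreted class 3 ligands mostly need a neuropilin as co-receptor, which also binds vascular endothelial growth factors, whereas the transmembrane classes and the GPI-anchored SEMA7A contact plexins or integrins directly. In blood, SEMA4D and SEMA7A are known on lymphocytes, platelets and red cells.

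Library totals were between 16159449 and 22821722 counts, and the 15078 genes that reached 10 counts in 3 or more libraries were tested. Of the 9 megakaryoblast markers, 8 were measured and PF4 had no count in any library. ITGA2B, the platelet integrin alpha chain, had a normalised read count of 12902 ± 390 (SD, n = 3) in control and 12377 ± 878 in C3 libraries, while GP1BA, a chain of the platelet receptor for von Willebrand factor, was called lower (2610 ± 88.6 to 1854 ± 21.0, log2 fold change -0.49, edgeR adjusted p = 2.2e-06). The transcription factor NFE2 passed the p gate and lay lower in every C3 library (-0.38, adjusted p = 1.9e-04), just short of the fold gate, and the integrin beta chain ITGB3 was above control in every C3 library (0.34, adjusted p = 0.033) without passing the gates. The 9 markers summed to 24754 to 25972 in control and 22829 to 25191 in C3 libraries. Markers of other cells were low but some moved with treatment: the 3 endothelial markers summed to 304.5 to 314.5 in control and 382.7 to 456.4 in C3 libraries, with 1 of 3 past the gates. That one was TEK, which made up most of the sum (237.3 ± 24.1 to 356.3 ± 26.7), whereas the others ran in opposite directions without passing the gates, CDH5 at 16.4 ± 7.21 and 33.8 ± 4.29 and VWF at 54.4 ± 20.7 and 33.7 ± 10.6. The 3 fibroblast markers summed to 11.9 to 18.6 and 35.4 to 43.1, with 1 of 3 (COL1A1) called higher. COL1A1 had 2 to 6 raw counts in control and 11 to 34 in C3 libraries and passed the count filter only through the latter, so it had to differ. The 3 neuronal markers summed to 73.2 to 84.8 and 105.3 to 125.5, with 1 of 3 (RBFOX3) called higher and SYT1 at 0. The 3 monocyte markers summed to 689.3 to 717.6 in control and 528.1 to 547.4 in C3 libraries, with LYZ, most of the sum, called lower (613.1 ± 18.8 to 430.5 ± 8.27). LYZ shares 34.7% of its exon bases with a gene on the opposite strand, and ITGB3 shares 33.2% with a gene on the same strand. CSF1R (85.2 ± 10.6 and 102.4 ± 5.01) and CD14 (3.15 ± 2.06 and 3.92 ± 1.43) were not lower on average in C3 libraries. The T cell markers (32.3 to 49.0 and 35.3 to 50.7) and the B cell markers (54.1 to 76.4 and 55.7 to 77.4, MS4A1 at 0) overlapped between the groups. The part of any of these in the results below was not tested. In bulk RNA, fewer cells that express a gene and less RNA per cell cannot be told apart.

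A gene was called when its edgeR quasi-likelihood test had an adjusted p below 0.01 and its fold change was above 1.3, which is 0.38 on the log2 scale. By this rule 5.05% of the genes tested were called higher and 1.47% lower in C3 libraries. With the p gate alone the shares were 6.51% and 4.06%. Without any overlap between the groups, C3 libraries were above control in 17.5% of the genes and below in 16.9%. At an unadjusted p below 0.05, 16.8% were higher and 15.3% lower. DESeq2 called 564 higher and 191 lower of the 28982 genes it fitted. That set is wider than the one edgeR tested and holds genes given no adjusted p, so a share of it is not comparable with the edgeR shares. Of the 10 semaphorin-system genes, all 10 were tested. SEMA6B was called higher, and 0 were called lower by edgeR or by DESeq2. At an unadjusted p below 0.05, 4 were higher (SEMA6B, SEMA7A, SEMA4A and PLXNB2) and 1 was lower (NRP1). SEMA6B and SEMA7A had all C3 libraries above control, NRP1 had all below, and 7 overlapped. A positive log2 fold change was found for 9 and a negative one for 1, with a median of 0.14 beside 0.0021 over all genes tested. The sign was not stable for SEMA4B, which was negative in 4 of 15 alternatives, or for PLXNA3, negative in 1 of 15. SEMA4A passed the count filter only through the C3 libraries, so it had to differ, and these counts are no support for a change of the group.

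To show promoter windows of the genes with the most RNA and of some relatives that changed, sequences were taken from RefSeq (GRCh38.p14). SEMA7A (chr15:74433959-74434208, minus strand) and PLXNA1 (chr3:126982865-126983114, plus strand) had the highest levels per length of the 10, and SEMA4D (chr9:89495657-89495906, minus strand) was among the least changed. SEMA3F (chr3:50154808-50155057, plus strand) and PLXND1 (chr3:129606677-129606926, minus strand) are among the 6 relatives that were called higher. Each line holds the 250 bases before the first listed start of the gene, 5′ to 3′ on the strand of the gene, and capitals mark GGGCGG or its reverse complement CCGCCC, the core of the GC box that Sp-family factors can bind. Compared with the GENCODE gene bounds, which include starts further upstream, all 250 bases of the PLXNA1 and SEMA4D windows and 13 bases of the SEMA3F window lie within the gene.
SEMA7A: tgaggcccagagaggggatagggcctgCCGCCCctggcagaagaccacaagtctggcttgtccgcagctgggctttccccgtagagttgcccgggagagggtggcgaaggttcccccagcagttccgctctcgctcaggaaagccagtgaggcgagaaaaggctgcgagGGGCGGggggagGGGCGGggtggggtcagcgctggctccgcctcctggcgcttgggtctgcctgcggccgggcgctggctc
PLXNA1: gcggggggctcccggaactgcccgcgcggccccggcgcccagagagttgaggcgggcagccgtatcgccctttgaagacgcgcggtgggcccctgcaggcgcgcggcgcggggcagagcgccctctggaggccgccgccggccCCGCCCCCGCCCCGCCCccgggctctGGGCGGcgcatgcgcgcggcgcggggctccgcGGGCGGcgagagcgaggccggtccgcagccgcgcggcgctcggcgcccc
SEMA4D: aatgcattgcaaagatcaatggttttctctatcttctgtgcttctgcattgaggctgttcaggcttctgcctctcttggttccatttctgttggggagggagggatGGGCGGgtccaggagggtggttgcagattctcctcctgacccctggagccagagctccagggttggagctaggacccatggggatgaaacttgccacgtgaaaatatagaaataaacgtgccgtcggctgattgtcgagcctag
SEMA3F: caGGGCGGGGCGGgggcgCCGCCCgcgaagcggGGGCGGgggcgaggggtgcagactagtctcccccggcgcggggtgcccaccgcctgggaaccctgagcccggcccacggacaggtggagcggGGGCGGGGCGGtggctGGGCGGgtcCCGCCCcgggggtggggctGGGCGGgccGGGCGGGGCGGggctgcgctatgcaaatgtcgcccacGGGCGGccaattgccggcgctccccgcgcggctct
PLXND1: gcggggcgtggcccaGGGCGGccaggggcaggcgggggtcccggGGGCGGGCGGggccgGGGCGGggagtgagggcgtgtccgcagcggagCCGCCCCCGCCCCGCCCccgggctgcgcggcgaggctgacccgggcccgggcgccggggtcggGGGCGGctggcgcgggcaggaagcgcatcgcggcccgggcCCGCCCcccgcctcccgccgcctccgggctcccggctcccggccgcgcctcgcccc
The motif was found on either strand, with overlapping matches counted, 3 times in SEMA7A, 5 times in PLXNA1, 1 time in SEMA4D, 12 times in SEMA3F and 9 times in PLXND1. SEMA3F and PLXND1 had the most matches of the family genes in the table. The other called relatives with a window, PLXNA4, PLXNC1 and SEMA4F, had 0, 1 and 2. SEMA4B and SEMA4C, which were not called, had 5 and 4. A link between matches and change was not tested. Of the 10 genes, 8 matched the table, and SEMA6B and NRP1 did not. At least 1 match was present in 6 of these 8, in 12 of the 19 matched relatives and in 42.3% of the 27305 genes of the table. A match is a run of letters and not a site known to be bound.

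SEMA6B, a transmembrane ligand of the A-type plexins, lies on chr19:4542593-4581776 on the minus strand (GRCh38, ENSG00000167680). Its normalised read counts, which are counts scaled by effective library size, were 407.5, 425.2 and 398.8 in control and 913.9, 795.3 and 829.7 in C3 libraries. All C3 libraries lay far above the control libraries, with no overlap. The means were 410.5 ± 13.5 and 846.3 ± 61.0 (SD, n = 3), a log2 fold change of 1.04 ± 0.079 (SE), or 2.06-fold. By log2 fold change it ranked 175 among the 761 genes called higher, and 86 among the 11851 genes with a mean normalised count of at least 50. Over 15 alternative settings, the value was 0.93 to 1.11. The GC content of its longest transcript was 69.7%, in the highest of 5 equal bins of the tested genes, of which 9.29% were called higher, beside 3.03% in the lowest bin. With a GC content correction the log2 fold change was 0.94.

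SEMA7A, the GPI-anchored ligand of PLXNC1 and beta 1 integrin (chr15:74409289-74433958), had normalised counts of 1355, 1359 and 1284 in control and 1616, 1419 and 1438 in C3 libraries. All C3 libraries lay above control, by a smaller margin than for SEMA6B, and the log2 fold change of 0.16 ± 0.067 (SE) did not pass the gates. SEMA4D, the ligand of PLXNB1 known also as CD100 (chr9:89360787-89498130), had 1262, 1248 and 1376 in control and 1275, 1407 and 1336 in C3 libraries. These ranges overlapped, at a log2 fold change of 0.05 ± 0.067. SEMA4B (chr15:90160604-90229679), another transmembrane class 4 ligand, had 76.4, 88.0 and 95.5 against 88.8, 71.8 and 100.4. Its libraries were interleaved, with a log2 fold change of 0.02 ± 0.17. SEMA4A (chr1:156147366-156177752), known for its role on dendritic and T cells, had raw counts of 3, 9 and 5 in control and 16, 15 and 11 in C3 libraries. Its normalised counts of 2.94, 9.54 and 5.97 against 18.2, 14.4 and 8.63 overlapped, and at this depth the log2 fold change of 1.12 had an SE of 0.50.

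**Figure D1:**
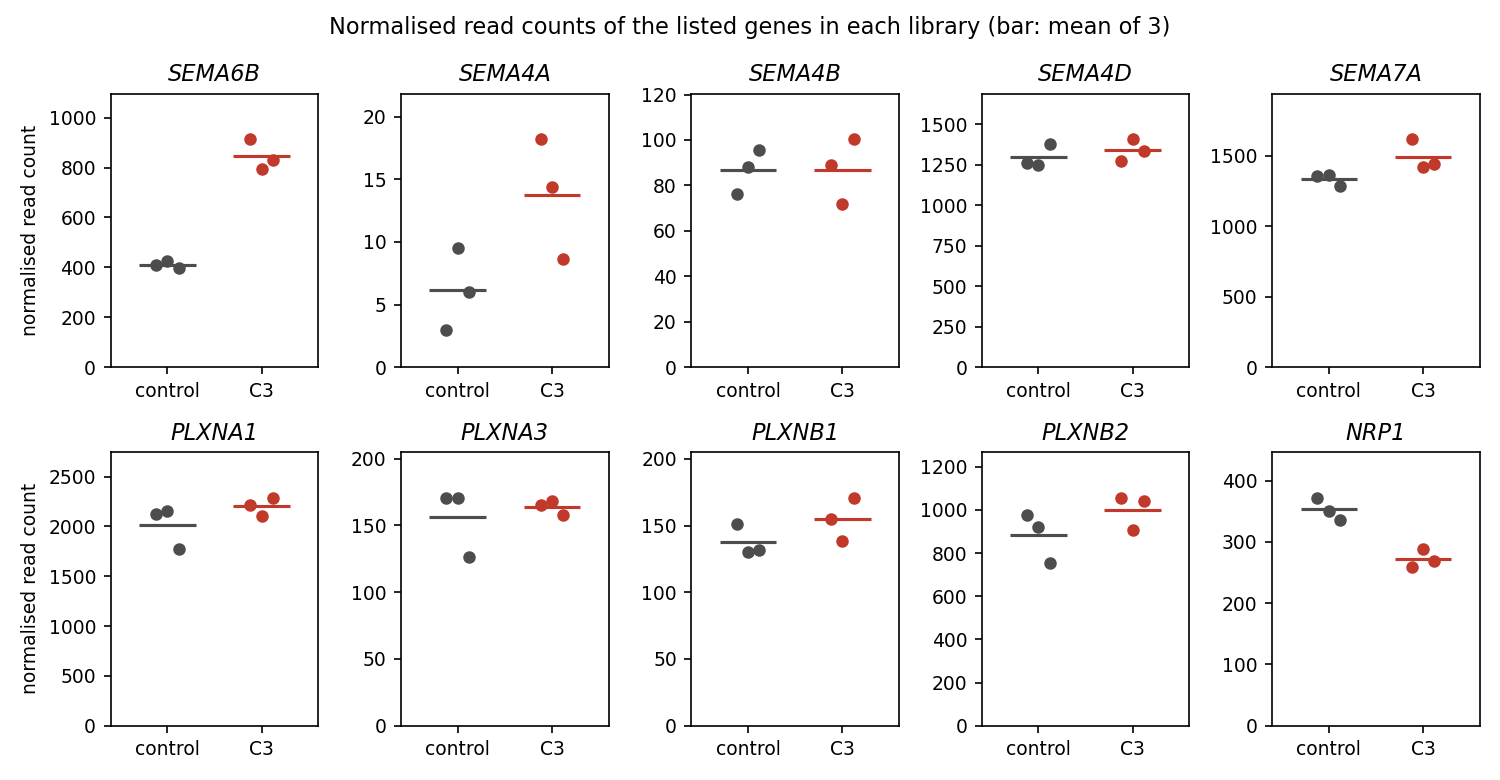
Normalised read count (vertical axis, from 0) of each of the 10 genes in every library, with control libraries in grey, C3 libraries in red and a bar at the mean of 3. SEMA6B separates most clearly, at 398.8 to 425.2 in control and 795.3 to 913.9 in C3 libraries; NRP1 lies lower in C3, at 259.5 to 289.0 against 335.5 to 372.3.

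None of the 4 plexins passed the gates. PLXNA1, which pairs with neuropilins to receive class 3 semaphorins (chr3:126982693-127037389), had 2121, 2159 and 1770 in control and 2213, 2106 and 2290 in C3 libraries, a log2 fold change of 0.13 ± 0.071. PLXNA3, which works with NRP2 in responses to SEMA3F (chrX:154458281-154477779), had 170.5, 170.7 and 126.6 against 165.0, 168.4 and 157.6, a log2 fold change of 0.06 ± 0.13. In both, the C3 libraries overlapped the control range and control replicate 3 was the lowest library. PLXNB1, the high-affinity receptor of SEMA4D (chr3:48403854-48430086), had 150.9, 130.4 and 131.3 against 154.8, 138.8 and 171.0, a log2 fold change of 0.17 ± 0.14. PLXNB2, a receptor of class 4 semaphorins (chr22:50274979-50307646), had 976.7, 920.4 and 753.4 against 1057, 906.3 and 1041, a log2 fold change of 0.18 ± 0.084. Neither separated the groups.

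Control replicate 3 was below the other control libraries on average in all 4 plexins. Its log2 value differed from the mean of the other control libraries by -0.43 (PLXNA3) to -0.09 (PLXNB1), with a median of -0.30, whereas the 5 semaphorins had a median of 0.13. Over the 282 tested genes with a GC content of at least 57% and a longest transcript of at least 6000 bases, limits chosen after the plexin values were seen, the median was -0.23, and over all tested genes it was 0.0047. All 4 plexins are among the 282. With the GC limit alone (3285 genes) the median was -0.10, and with the length limit alone (3053 genes) it was -0.033. The 282 genes had a median log2 fold change of 0.18 between C3 and control, beside 0.15 for the 4 plexins. It was 0.014 with the GC limit alone and 0.056 with the length limit alone. Without control replicate 3, the log2 fold changes were 0.04 for PLXNA1, -0.06 for PLXNA3, 0.14 for PLXNB1 and 0.08 for PLXNB2. With all 6 libraries and the GC content correction they were 0.08, 0.06, 0.12 and 0.12 in the same order. The part of length was not tested.

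NRP1, the co-receptor for SEMA3A and vascular endothelial growth factor (chr10:33177492-33336262), had 372.3, 351.0 and 335.5 in control and 259.5, 289.0 and 269.0 in C3 libraries. All C3 libraries lay below all control libraries. The means were 352.9 ± 18.4 and 272.5 ± 15.1, and the log2 fold change of -0.37 ± 0.097 passed the p gate and lay just inside the fold gate of 0.38. It was called lower without control replicate 3 (-0.41) and without C3 replicate 2 (-0.41), but it missed the p gate in 7 of 15 alternatives, among them DESeq2 and leaving out any of the other 4 libraries. A share of 4.87% of its exon bases is overlapped by a gene on the opposite strand. NRP2, the co-receptor for SEMA3F and not one of the 10, had 572.1, 541.9 and 507.5 in control and 672.7, 680.5 and 694.0 in C3 libraries, all above. Its log2 fold change was 0.33 ± 0.076 (edgeR adjusted p = 0.0026), also short of the fold gate. Per exon length, the log2 ratio of NRP2 to NRP1 was 0.35, 0.36 and 0.33 in control and 1.10, 0.97 and 1.10 in C3 libraries. NRP1 made up 44.1 ± 0.27% of the summed neuropilin level per length in control and 32.5 ± 1.2% in C3 libraries, while the sum itself was 69.5 ± 3.92 and 72.8 ± 1.63.

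The other 21 genes of the family were set beside the 10 as a list. Of these, 14 were tested, and 6 were called higher and 0 lower by edgeR, with 5 and 0 by DESeq2 and with 11 and 0 at an unadjusted p below 0.05. Over all genes tested the shares were 5.05% and 1.47% by edgeR and 16.8% and 15.3% at the unadjusted p. DESeq2 called 564 and 191 of the 28982 genes it fitted, a wider set than edgeR tested, so no comparable share is given for it. The groups did not overlap in 11 of the 14, with C3 above control in each (17.5% of all genes), and the median log2 fold change was 0.47. SEMA3F, a secreted ligand that signals through NRP2, had 95.0, 108.2 and 100.3 in control and 258.4, 162.7 and 210.9 in C3 libraries, a log2 fold change of 1.05 ± 0.15 (edgeR adjusted p = 2.0e-05). Its C3 libraries were the more scattered group and none reached down to the control range. PLXND1, a plexin known from blood vessels and as a receptor of SEMA3E, had 1046, 959.7 and 815.5 against 1628, 1530 and 1601, a log2 fold change of 0.75 ± 0.076 (adjusted p = 9.7e-08). SEMA3E had 0 counts in the 6 libraries, which allows up to 3 of 111515772 counts, or 0.027 CPM.

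Among possible partners of SEMA6B, PLXNA4 rose from 994.2 ± 157 to 1388 ± 25.2 (log2 fold change 0.48, adjusted p = 1.7e-04), and PLXNA2 had only 3 to 26 raw counts per library (0.97, adjusted p = 0.14), its value ranging from 0.63 without control replicate 3 to 1.68 without control replicate 1. The call for PLXNA4 was lost without control replicate 3, at 0.36. SEMA6A, another class 6 semaphorin and a ligand of PLXNA2 and PLXNA4, rose from 424.8 ± 29.3 to 622.7 ± 40.1 (0.55, adjusted p = 3.7e-05). PLXNC1, the receptor of SEMA7A, rose from 102.3 ± 10.8 to 166.1 ± 19.5 (0.71, adjusted p = 9.7e-04), a call lost without C3 replicate 3. SEMA4F rose from 82.2 ± 6.4 to 126.7 ± 9.24 (0.63, adjusted p = 0.0045) and lost its call in DESeq2 and on leaving out each library in turn except C3 replicate 1. The tested relatives that were not called were SEMA4G (0.45), PLXNB3 (0.44), SEMA6C (0.32), SEMA3G (0.31), SEMA4C (-0.09) and SEMA3C (-0.49), beside NRP2 and PLXNA2. SEMA4G shares 28.1% of its exon bases with a gene on the opposite strand, and reads of overlapping genes cannot be told apart where the counting did not use strand.

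**Figure D2:**
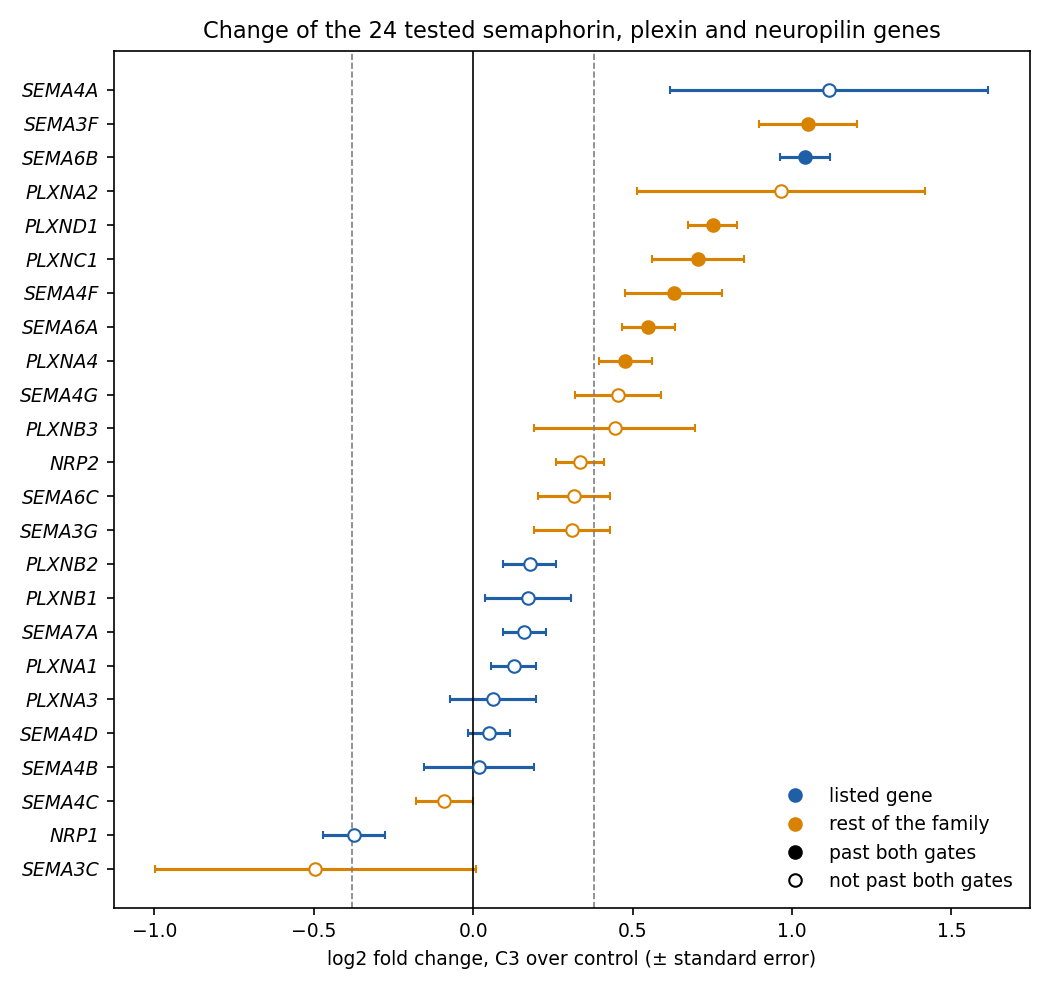
Log2 fold change of C3 over control with its standard error (horizontal axis) for the 24 tested genes of the family, the 10 followed here in blue and their relatives in orange, filled where past both gates (dashed lines at 0.38 and -0.38). SEMA6B is the filled blue point at 1.04, and 6 orange points are filled, from PLXNA4 at 0.48 to SEMA3F at 1.05.

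Levels of different genes were compared as normalised counts per kb of merged exons. In control libraries the order was SEMA7A (351), PLXNA1 (179), PLXNB2 (122), SEMA4D (91.5), SEMA6B (87.2), NRP1 (30.6), PLXNB1 (14.1), PLXNA3 (13.3), SEMA4B (12.4) and SEMA4A (0.91). Library ranges overlapped between SEMA4D and SEMA6B, between PLXNB1 and PLXNA3, and between PLXNA3 and SEMA4B. In C3 libraries SEMA6B stood at rank 3 with 180, overlapping PLXNA1 (196) and above PLXNB2 (138) and SEMA4D (94.6), and the remaining genes kept their order. With the length of the longest transcript in place of merged exons, SEMA4D moved from rank 4 to 2 in control and from 5 to 3 in C3 libraries. SEMA4B moved from rank 9 to 7 in both groups, and SEMA6B ranked 5 in control and 4 in C3 libraries. Control levels by that length were 228 for SEMA4D, 60.0 for NRP1, 22.9 for SEMA4B and 1.89 for SEMA4A.

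**Figure D3:**
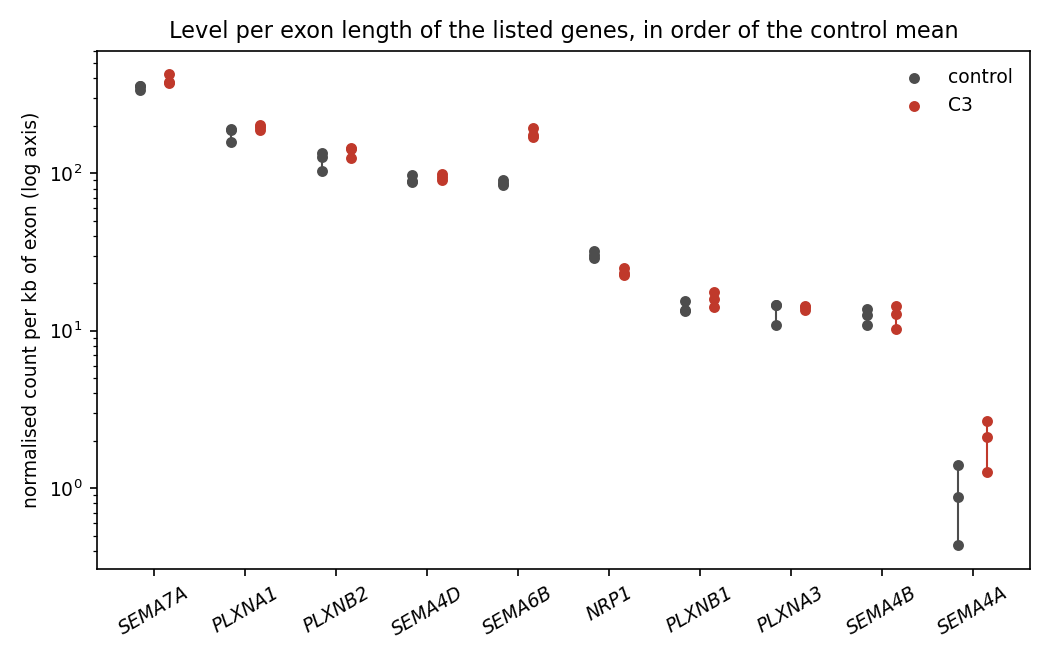
Normalised count per kb of merged exon (vertical log axis) of the 10 genes, with the 3 control libraries in grey and the 3 C3 libraries in red and a line over each range, in order of the control mean. Levels span from 0.91 for SEMA4A to 351 for SEMA7A in control, and SEMA6B moves from 87.2 to 180.

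As a share of the summed level per length of the 20 semaphorins, SEMA6B was 10.2, 10.6 and 10.5% in control and 17.5, 17.2 and 17.2% in C3 libraries. SEMA7A went from 42.0 ± 0.15% to 37.8 ± 0.82% and SEMA4D from 10.98 ± 0.93% to 9.15 ± 0.99%, while the sum was 834.7 ± 24.6 in control and 1038 ± 62.7 in C3 libraries. SEMA4C, not one of the 10, held the next largest share after SEMA7A in control, at 15.4 ± 1.85%, and 11.7 ± 0.43% in C3 libraries. These shares are per kb of merged exons only and depend on the length used. Per kb of the longest transcript, SEMA4D stood at 228 and SEMA7A at 395 in control, against 91.5 and 351 per kb of merged exons. Among the 9 plexins, PLXNA1 held 35.7 ± 0.97% in control and 30.7 ± 0.43% in C3 libraries and PLXNB2 24.1 ± 0.43% and 21.6 ± 0.95%. The share of PLXND1 was 19.6 ± 0.56% and 26.0 ± 0.41%. Shares are bound to sum to the whole, so a smaller share of PLXNA1 stood beside a normalised count that was not lower. Between libraries of a group these plexin shares varied little, also in control replicate 3.

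**Figure D4:**
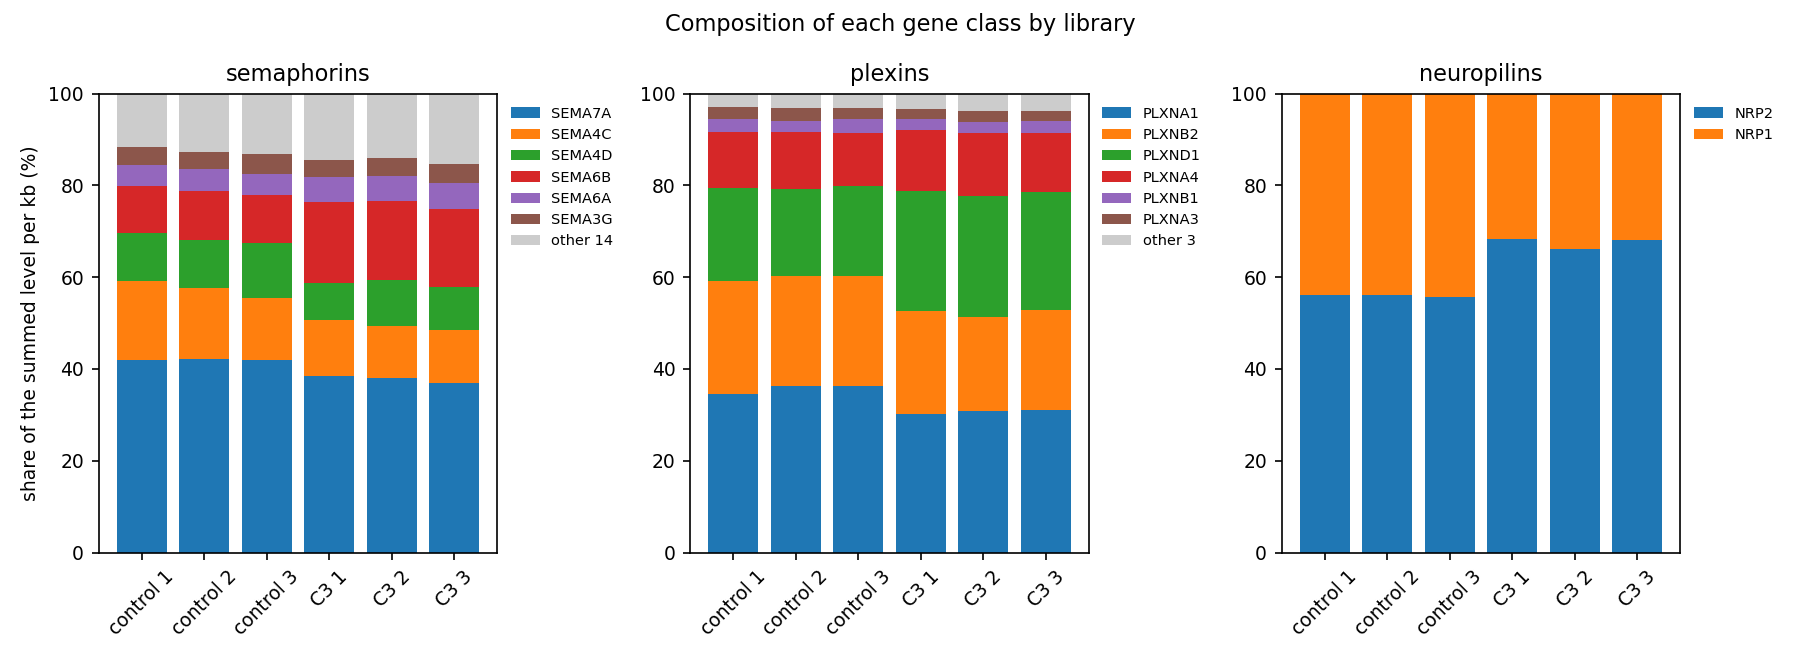
Share (%) of the summed normalised count per kb that each gene holds in its class, stacked by library, for the semaphorins, plexins and neuropilins (grey: remaining genes). SEMA6B (red, left) widens from 10.4 to 17.3%, PLXND1 (green, middle) from 19.6 to 26.0%, and NRP1 (orange, right) narrows from 44.1 to 32.5%.

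Pathway genes around the receptors were counted in 5 lists of 71 genes, of which 60 were tested, 7 were called higher and 0 lower by edgeR (7 and 0 by DESeq2, 27 and 3 at an unadjusted p below 0.05), where the shares of all genes were 5.05% and 1.47% by edgeR and 16.8% and 15.3% at the unadjusted p. Their median log2 fold change was 0.13. Over all 28982 genes it fitted, a wider set than edgeR tested, DESeq2 called 564 higher and 191 lower. Of 7 tested co-receptors, 2 were called higher: KDR, the main endothelial receptor of vascular endothelial growth factor (1590 ± 40.4 to 2500 ± 53.1; 0.65, adjusted p = 2.8e-08), and MET, a receptor tyrosine kinase that associates with B-type plexins (143.2 ± 6.05 to 213.9 ± 15.4; 0.58, adjusted p = 0.0014). Of 19 GTPase genes, 2 were called higher: MRAS, an R-Ras relative (54.7 ± 4.03 to 101.5 ± 3.81; 0.89, adjusted p = 6.3e-04), and FARP1, a guanine nucleotide exchange factor (336.2 ± 37.8 to 492.5 ± 47.1; 0.54, adjusted p = 2.6e-04). FARP1 shares 22.8% of its exon bases with a gene on the opposite strand. RHOA, RAC1 and the plexin-B-binding exchange factors ARHGEF11 and ARHGEF12 did not pass the test, with log2 fold changes of -0.06, -0.14, -0.12 and 0.06.

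Of 27 cytoskeletal effectors, 3 were called higher: DPYSL5, a collapsin response mediator protein (312.6 ± 3.35 to 479.1 ± 35.3; 0.61, adjusted p = 2.1e-05), MICAL1, which oxidises actin (137.5 ± 16.2 to 207.5 ± 3.5; 0.59, adjusted p = 0.0014), and ENAH, which promotes actin filament growth (440.1 ± 54.3 to 605.8 ± 25.4; 0.46, adjusted p = 4.9e-04). The calls for MICAL1 and ENAH were lost without control replicate 2. Of 4 proteases that can cut semaphorins, the membrane sheddases ADAM10, ADAM17 and MMP14 and the proprotein convertase FURIN, 0 were called by edgeR or DESeq2 and 0 passed an unadjusted p below 0.05, with log2 fold changes from -0.10 (ADAM17) to 0.11 (FURIN). Of 3 tested ligands that share NRP1, 0 were called by edgeR or DESeq2 and 2 were higher at an unadjusted p below 0.05: VEGFA (802.9 ± 86.9 to 1033 ± 59.0; 0.36, adjusted p = 0.0016), short of the fold gate, and PGF, which had 2 to 19 raw counts and passed the count filter only through the C3 libraries.

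**Figure D5:**
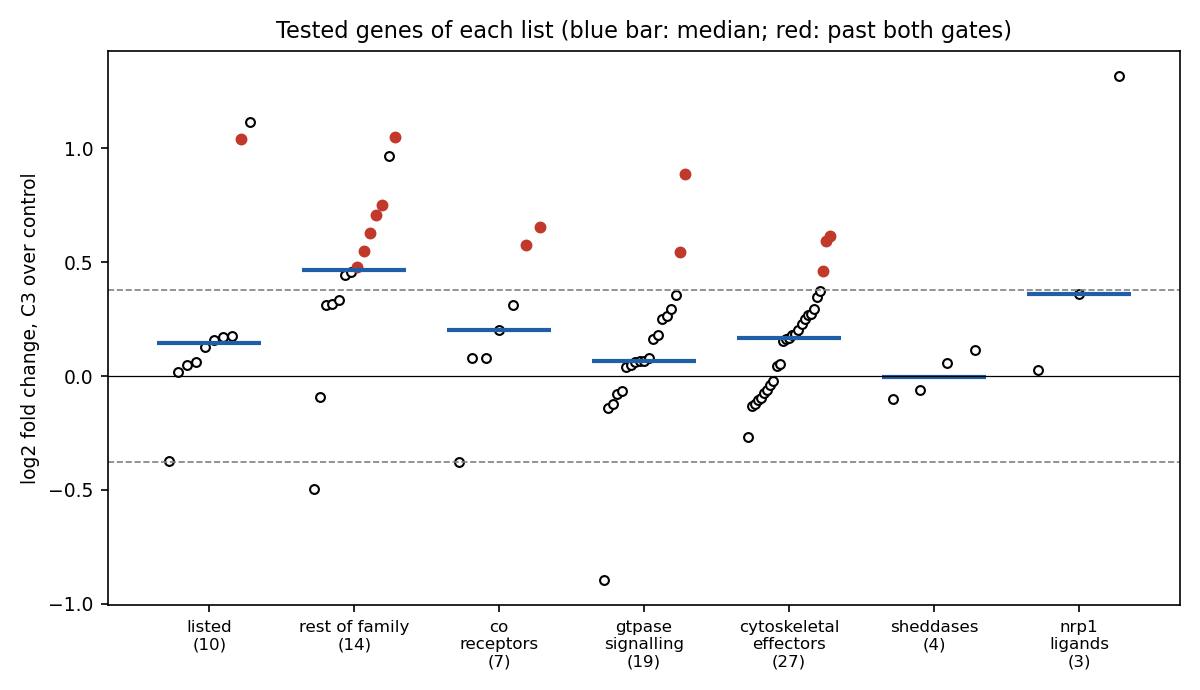
Log2 fold change of C3 over control (vertical axis) for each tested gene of the 10 followed here, their relatives and the 5 pathway lists, with the number tested in brackets, a blue bar at the median and red points past both gates. Medians are 0.14 for the 10 genes, 0.47 for the relatives and between -0.0023 and 0.36 for the pathway lists.

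The 5 genes whose values over the 6 libraries were most like those of SEMA6B, by the root mean square difference of log2 normalised counts taken relative to the control mean, were SPHK1 (0.036), TLE2 (0.061), RIMS4 (0.084), NPAS1 (0.085) and PALLD (0.085). SPHK1, which makes sphingosine 1-phosphate, had a log2 fold change of 0.99, and the other 4 had 1.07, 1.03, 0.97 and 0.96. Likeness was measured over 6 libraries of 2 groups only, so it mostly reflects a similar size of difference.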

How the data were processed

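Raw RNAseq counts of 6 Meg-01 libraries were analysed. Per the labels, the authors ran fastp, then STAR 2.6.1d against GRCh38/hg38, then featureCounts 1.5.0-p3, and the deposited values are whole-number counts per Ensembl gene without normalization. Overlapping genes are uncertain, since neither the strand setting nor the annotation release is stated in the sources used here. The 10 genes and all lists were chosen with earlier results of these data known.

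The 15078 genes (99.87% of counts) that reached 10 counts in 3 or more libraries were scaled with TMM factors and tested with edgeR 4.0.16 (R 4.3.3, quasi-likelihood, Benjamini-Hochberg over all genes), with gates of an adjusted p below 0.01 and a fold change above 1.3. Normalised counts are counts divided by effective library size, times its mean. Standard errors are the log2 fold change over the square root of F. Symbols, positions, lengths and GC content came from GENCODE release 44 (58207 of 58735 identifiers). Named genes were the 10, every tested relative, called pathway genes (at most 4 a list) and the 5 genes most like SEMA6B among those with a mean of at least 50; others were named after their values were seen. Alternatives were RLE factors, library size alone, other count filters, DESeq2 1.42.0, limma-voom (limma 3.58.1), the replicate block and each library left out; a GC content correction (loess, span 0.3, pseudocount 0.5), with and without the block, was chosen after seeing the data. The fits were tested on simulated data. The limit given for a count of 0 covers counting error only.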

Additional observations from a re-analysis of the deposited data

How the results depend on the processing

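The log2 fold change of SEMA6B, by which the list was chosen, was 0.93 to 1.11 over 15 alternatives, given as a description. The other listed genes were not called higher in any alternative that tested them. SEMA4A had a value in only 11 of the 15, and DESeq2 gave it no adjusted p. NRP1 was the 1 listed gene called lower in some alternatives, and it missed the p gate in 7 of 15. The count of listed genes called lower ranged from 0 to 1 on leaving out each library. The relatives called higher numbered 4 to 6 on leaving out a library, 5 with DESeq2 and 8 with library size alone, which moved the median of all genes to 0.076. The pathway genes called higher numbered 12 with library size alone and 7 to 11 on leaving out a library, the most without C3 replicate 2. SEMA4C changed sign, at 0.024 without control replicate 1 (-0.19 to 0.024 on leaving out a library). SEMA4B did so without control replicate 1 (-0.06), without C3 replicate 3 (-0.11) and with the GC content correction (-0.03, and -0.05 with the block), and PLXNA3 without control replicate 3 (-0.06). NRP2 was called higher with library size alone (0.41) and without control replicate 1 (0.39), and SEMA4G with library size alone (0.53). NRP2 missed the p gate without control replicate 2, control replicate 3 or C3 replicate 3 (edgeR adjusted p = 0.016, 0.015 and 0.020). The cause was not tested. The replicate numbers did not pair the libraries (correlations of same-numbered deviations 0.13, -0.08 and 0.09). With the replicate number as a block, 909 genes were called higher and 268 lower in place of 761 and 222, SEMA6B was at 1.04, and no listed gene changed its call. DESeq2 called 564 and 191, and library size alone 1024 and 101. Depth limits SEMA4A, SEMA3C, PLXNA2, PGF and COL1A1, which had at most 34 counts in a library.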
